A study of Mus musculus with 39 samples.

Results

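The genes described here are the 10 mouse cyclins of the mitotic and meiotic cell cycle: the D-type Ccnd1, Ccnd2 and Ccnd3, the E-type Ccne1 and Ccne2, the A-type Ccna1 and Ccna2, and the B-type Ccnb1, Ccnb2 and Ccnb3. They were taken by symbol from the count tables and joined on the Ensembl identifier, so that 10 of the 21561 genes listed in both tables were followed through every gubernaculum and testis group. In WT testis the A-type cyclins changed places with age. Ccna2 fell from 208, 219 and 205 CPM (counts scaled to library size) at P8 to 10.6, 11.5 and 12.9 at P40, while Ccna1 rose from at most 1.497 CPM to 193, 186 and 185. In INSL3-KO testis at P23, Ccna1 stood at 1.35, 0.906 and 1.34 CPM, against 166, 169 and 167 in the libraries labelled WT of that age, and Ccnb2 at 15.5, 18.3 and 15.5 against 195, 193 and 188. In P8 testis of both mutants, Ccnb3 and Ccne2 were above WT and Ccnd2 and Ccnd3 below it. In P8 gubernaculum of both mutants, Ccnd3 and Ccne1 were lower than in WT.

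Cyclins are the regulatory subunits of cyclin-dependent kinases (CDKs), and their synthesis and destruction set the order of the cell cycle. D-type cyclins pair with CDK4 and CDK6 and phosphorylate the RB proteins, which frees E2F factors. E-type cyclins with CDK2 start DNA replication, A-type cyclins with CDK2 and CDK1 carry S phase and G2, and B-type cyclins with CDK1 drive entry into division. The male germ line uses its own versions beside these: Ccna1 is largely restricted to meiotic germ cells and is needed for male meiosis, Ccnb3 is a cyclin of early meiotic prophase, and Ccnb2 is abundant in spermatocytes. In the testis, Ccnd2 is known from Sertoli cells and spermatogonia. Outside the cell cycle, Ccnd3 is known to be high in differentiating skeletal muscle.

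INSL3 is the Leydig cell hormone that acts on the gubernaculum, the cord that draws the testis down, through the receptor RXFP2. Male mice of 3 genotypes were used, with no drug or surgery: WT, INSL3-KI, in which the minke whale INSL3 coding sequence stands in place of the mouse one at the native locus behind the mouse regulatory elements, and INSL3-KO, in which Insl3 was knocked out. WT and INSL3-KI were of the C57BL/6J background. The sources used here do not describe the strain, origin or allele of the INSL3-KO line. The INSL3-KI mice were changed in every cell from conception. Whether a line goes back to 1 founder, or whether tissue of several mice was pooled in a library, is not said either. The 39 libraries form 13 groups of 3 biological replicates: gubernaculum of WT, INSL3-KI and INSL3-KO at P8 and of WT and INSL3-KI at P23, and testis of the 3 genotypes at P8 and P23 and of WT and INSL3-KI at P40, where P8, P23 and P40 are ages of 8, 23 and 40 days.

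The libraries held between 29861447 and 45260372 counts. They came in separate tables, of which the second holds INSL3-KO at every age and WT testis at P23 and the first all others. Comparisons of P8 INSL3-KO with WT or INSL3-KI, of P23 INSL3-KI testis with WT or INSL3-KO, and of WT testis at P23 with P8 therefore set libraries of different tables against each other, and table and genotype or age cannot be told apart there. Mouse Insl3 had 2722 to 3524 counts per library in WT testis at P8, 15 to 33 in INSL3-KI and 613 to 906 in INSL3-KO. The INSL3-KO libraries at P8 thus kept reads of Insl3, and counts per gene do not show from which part of it. At P23 Insl3 had 20844 to 25238 in WT, 52 to 84 in INSL3-KI and 0 to 5 in INSL3-KO, and at P40 20183 to 29799 in WT and 443 to 511 in INSL3-KI. The INSL3-KO testis libraries thus differed in this gene between P8 and P23. Their genotype label at P8 could not be checked by it and is uncertain. That label is kept as given, and every comparison with INSL3-KO testis at P8 rests on those libraries. The summed level of 8 spermatid markers was 10843 to 12141 CPM in the libraries labelled WT testis at P23, above the 7410 to 8696 CPM of WT at P40, and every comparison with WT at P23 rests on those libraries. In mice the first spermatids are only just forming at about this age, so the age label of these libraries is in doubt. It is kept as given, and each value printed for WT at P23 is that of the libraries so labelled. The summed spermatid marker level was 86.2 to 753 CPM in INSL3-KI and 15.1 to 18.2 in INSL3-KO at P23, and 14.5 to 50.7 in INSL3-KI at P40. Among the libraries that stood apart within their groups were INSL3-KI testis replicate 3 at P23, INSL3-KI testis replicate 1 at P40, INSL3-KI gubernaculum replicate 2 at P23, WT gubernaculum replicate 3 at P23, with 946 CPM of epididymal markers against 0.241 and 0.393 in the others, and INSL3-KI testis replicate 2 at P8, with 2131 CPM of spermatocyte markers against 906 and 753. WT testis at P8, the reference of all P8 testis comparisons, was wide too. Its libraries spanned 43.8 to 327 CPM of adipocyte markers, 8039 to 24173 of fibroblast markers and 189 to 443 of differentiating spermatogonia markers. WT gubernaculum at P8 spanned 1.16 to 52.6 CPM of spermatid markers. In these bulk tissues, fewer cells of a type and less RNA per cell cannot be told apart.

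Levels of a gene between libraries are given in CPM, the count divided by the library's total over the shared genes, times 1000000. Levels of different genes are compared in FPKM, the authors' value per gene length. Differences between groups are log2 fold changes from edgeR's quasi-likelihood test with TMM scaling, each from 3 against 3 libraries, with a standard error (SE) and a p-value adjusted over all genes tested, and calls are genes that changed at least 2-fold with that p below 0.01. TMM centres the bulk of genes, so that the log2 fold change can differ from the ratio of CPM. Dropping TMM moved the median of all genes by -0.75 in WT testis between P8 and P23, by 0.64 for INSL3-KO against WT at P23 and by 0.61 for INSL3-KI against WT at P40. Scaling on 10 Sertoli cell markers moved it by -2.75 and -2.32 in the latter comparisons and by -1.24 for INSL3-KI against WT at P23. Fold changes of mature testis are therefore changes relative to the average gene.

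Per length, the cyclins of WT testis at P8 were led by Ccnd3 at 93.8 ± 15.5 FPKM (SD, n = 3), followed by Ccnd2 at 67.6 ± 10.3, Ccna2 at 67.4 ± 2.16, Ccnb1 at 54.1 ± 6.04 and Ccnb2 at 50.03 ± 1.91. The ranges of Ccnd3 and Ccnd2, of Ccnd2 and Ccna2, and of Ccnb1 and Ccnb2 overlapped. At the bottom stood Ccna1 at 0.506 ± 0.404 FPKM and Ccnb3 at 0.415 ± 0.366. At P40 the order had turned over. Ccna1 led with 112 ± 3.73 FPKM, then Ccnb2 with 96.2 ± 6.14, Ccnd3 with 68.0 ± 5.80 and Ccnb1 with 34.2 ± 3.17, each apart from the next, while Ccna2 had 3.66 ± 0.373, Ccnd1 2.59 ± 0.388 and Ccnd2 1.68 ± 0.576. In INSL3-KO at P23 the order was Ccnd3 with 36.8 ± 1.77, Ccnb1 with 19.2 ± 0.350 and Ccna2 with 14.5 ± 1.22, and Ccna1 was last with 0.680 ± 0.150. In gubernaculum of WT at P8, Ccnd3 stood at 261 ± 33.5 FPKM, far above Ccnd1 at 30.8 ± 0.724 and Ccna2 at 28.8 ± 2.51, whose ranges overlapped.

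**Figure D1:**
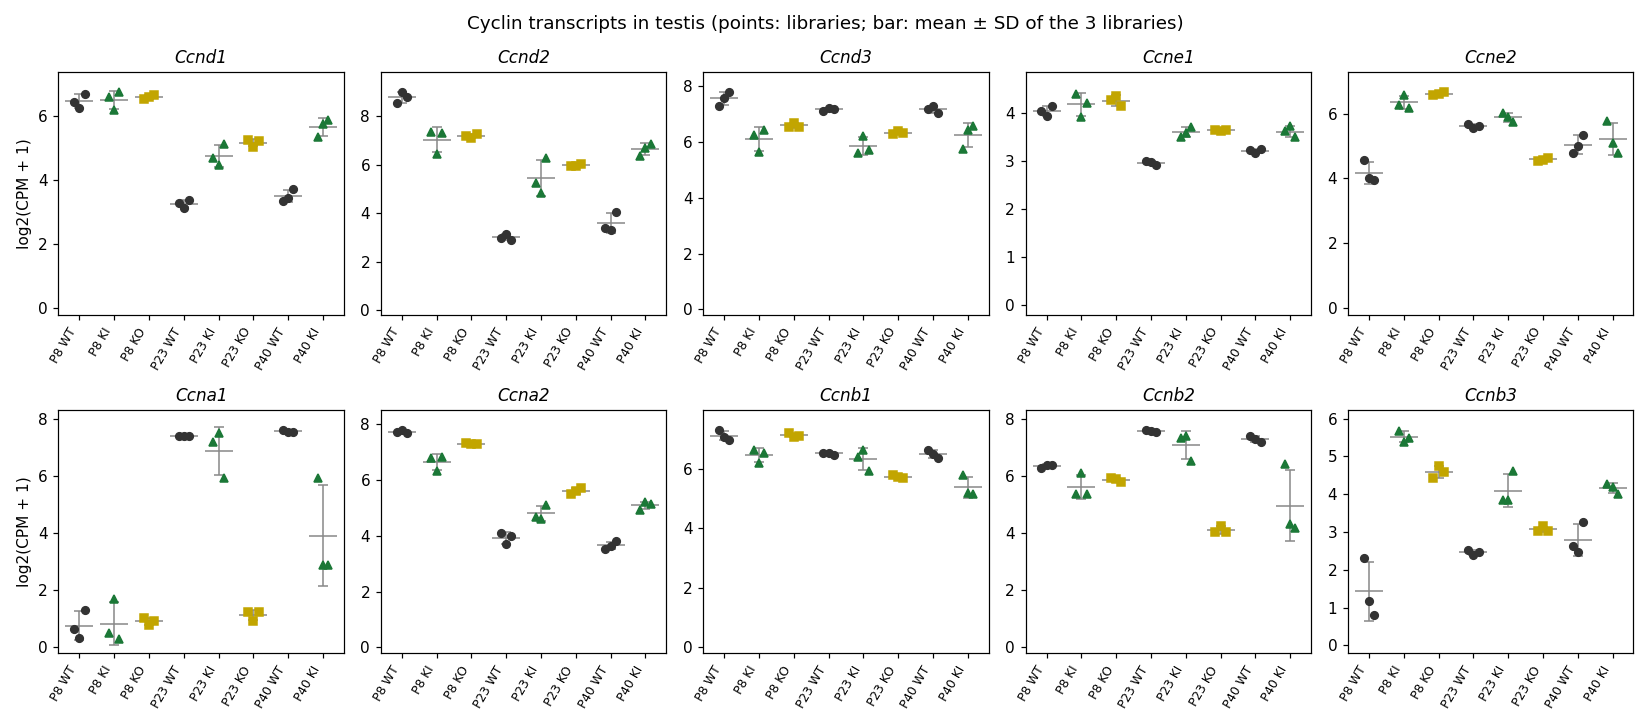
Levels of the 10 cyclins in the 24 testis libraries, as log2(CPM + 1) on the vertical axis of each panel (each panel has its own range), by genotype and age on the horizontal axis. Points are libraries, and bars are the mean ± SD of 3 libraries. Ccna1 lies near 0 in all groups at P8 and in INSL3-KO at P23, and Ccna2 is highest in WT at P8 and lowest in WT at P23 and P40.

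The D-type cyclins, which couple growth signals to entry into the cycle, behaved differently from each other. Ccnd2 (ENSMUSG00000000184, GRCm38 chr6:127125162-127152193, minus strand) was the D-type cyclin with the most counts in WT testis at P8, with 376, 515 and 444 CPM. In INSL3-KI of that age it had 160, 86.1 and 160 CPM, and in INSL3-KO 144, 138 and 152, so that no mutant library reached the WT range. It fell in INSL3-KI by 1.83 on the log2 scale (SE 0.25, edgeR adjusted p = 0.0051) and in INSL3-KO by 1.75 (SE 0.12, edgeR adjusted p = 4.4e-05). Ccnd3 (ENSMUSG00000034165, GRCm38 chr17:47505051-47599691, plus strand) followed the same direction, with 157, 193 and 221 CPM in WT, 76.1, 48.9 and 85.9 in INSL3-KI and 92.8, 103 and 93.2 in INSL3-KO. Its log2 fold changes were -1.55 (SE 0.22, edgeR adjusted p = 0.0056) and -1.11 (SE 0.13, edgeR adjusted p = 0.00039). Without TMM, and without WT replicate 3, the latter was -0.98, just under a 2-fold change. Ccnd1 (ENSMUSG00000070348, GRCm38 chr7:144929931-144939925, minus strand) overlapped between the genotypes at P8, with 85.7, 74.2 and 102 CPM in WT, 95.1, 71.1 and 105 in INSL3-KI and 90.3, 95.6 and 98.6 in INSL3-KO. The 2 mutants share their WT libraries, and INSL3-KO is in the other table.

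As WT testis matured, Ccnd1 and Ccnd2 dropped and Ccnd3 did not pass the test. Ccnd2 was at 6.75, 7.86 and 6.49 CPM in WT at P23 and at 9.40, 8.86 and 15.7 at P40, below every P8 library. Its log2 fold change against P8 was -5.23 at P23 (SE 0.16, edgeR adjusted p = 6.9e-08) and -4.63 at P40 (SE 0.24, edgeR adjusted p = 1.1e-06). Ccnd1 was at 8.77, 7.75 and 9.27 CPM at P23 and 9.13, 9.93 and 12.1 at P40, with log2 fold changes of -2.59 (SE 0.14, edgeR adjusted p = 1.6e-06) and -2.40 (SE 0.15, edgeR adjusted p = 2.9e-06). Ccnd3 kept 137, 149 and 144 CPM at P23 and 145, 155 and 130 at P40. The mutants kept more of the other two. In INSL3-KI, Ccnd2 had 36.6, 27.4 and 76.6 CPM at P23 and 81.6, 102 and 116 at P40, and in INSL3-KO 60.5, 60.4 and 63.8 at P23. Ccnd1 had 24.5, 20.9 and 34.0 CPM in INSL3-KI at P23, 39.0, 52.0 and 57.8 at P40, and 37.0, 31.8 and 35.9 in INSL3-KO at P23. All of these lay above the WT libraries of their age.

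Against WT at P40, Ccnd2 in INSL3-KI differed by a log2 fold change of 2.53 (SE 0.24, edgeR adjusted p = 0.00039) and Ccnd1 by 1.64 (SE 0.16, edgeR adjusted p = 0.00042), but scaled on the Sertoli cell markers these were 0.21, no longer called, and -0.71, in the other direction. At P23 the values for INSL3-KO were 2.49 for Ccnd2 (SE 0.09, edgeR adjusted p = 1.2e-09) and 1.38 for Ccnd1 (SE 0.10, edgeR adjusted p = 5.0e-07), and on the Sertoli scale -0.26 and -1.37. For INSL3-KI at P23 they were 2.22 (SE 0.34, edgeR adjusted p = 0.0037) and 1.13 (SE 0.18, edgeR adjusted p = 0.0039), and on the Sertoli scale 0.80 and -0.17, neither called. Without INSL3-KI replicate 3 they were 1.77 and 0.99. The direction for these genes therefore depends on what is held constant. The summed Sertoli marker level moved the same way, at 1692 to 1740 CPM in WT, 2304 to 6868 in INSL3-KI and 13081 to 13245 in INSL3-KO at P23, and at 1389 to 1706 in WT and 6927 to 11065 in INSL3-KI at P40. Its part in the result was not tested. Ccnd3 went the other way, with 47.9, 74.1 and 52.0 CPM in INSL3-KI and 77.4, 83.4 and 79.7 in INSL3-KO at P23, and 52.6, 85.0 and 93.4 in INSL3-KI at P40, all below WT. It was lower in INSL3-KI by a log2 fold change of -1.77 at P23 (SE 0.22, edgeR adjusted p = 0.0019) and -1.52 at P40 (SE 0.22, edgeR adjusted p = 0.0014), and in INSL3-KO at P23 by -1.48 (SE 0.05, edgeR adjusted p = 1.3e-09). The direction held on both other scales, but without TMM the values at P40 and in INSL3-KO were -0.90 and -0.84, under a 2-fold change.

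The E-type cyclins open S phase. Ccne2 (ENSMUSG00000028212, GRCm38 chr4:11191351-11204779, plus strand) was low in WT testis at P8, with 22.6, 15.1 and 14.5 CPM. INSL3-KI libraries of that age had 76.2, 94.4 and 71.2 CPM and INSL3-KO libraries 93.9, 95.1 and 99.5, all above the WT range. The log2 fold changes were 2.11 in INSL3-KI (SE 0.22, edgeR adjusted p = 0.0038) and 2.35 in INSL3-KO (SE 0.17, edgeR adjusted p = 5.0e-05). The summed level of 10 spermatocyte markers moved in the same direction at P8. It was 77.5 to 158 CPM in WT, 753 to 2131 in INSL3-KI and 943 to 956 in INSL3-KO, and its part in the result was not tested. In WT Ccne2 rose with age, to 50.1, 46.1 and 48.1 CPM at P23 and 26.6, 30.8 and 39.8 at P40. The log2 fold change against P8 was 2.22 at P23 (SE 0.17, edgeR adjusted p = 9.9e-06) and 1.57 at P40 (SE 0.20, edgeR adjusted p = 0.00018), the latter 0.90 without TMM. In INSL3-KO it moved down instead, to 22.4, 22.9 and 23.7 CPM at P23, a log2 fold change of -1.80 from P8 (SE 0.06, edgeR adjusted p = 2.7e-11) and of -1.70 against WT at P23 (SE 0.06, edgeR adjusted p = 1.8e-09). INSL3-KI at P23, with 63.6, 58.3 and 52.6 CPM, exceeded INSL3-KO by 1.56 on the log2 scale (SE 0.16, edgeR adjusted p = 0.00040). At P40 INSL3-KI had 53.4, 33.2 and 26.4 CPM, which overlapped WT.

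Ccne1 (ENSMUSG00000002068, GRCm38 chr7:38097984-38107534, minus strand) was called in none of the testis comparisons, although its CPM ran from 6.603 to 20.3. It ran from 14.2 to 20.3 CPM over the 9 libraries at P8. At P23 it had 7.02, 6.94 and 6.603 CPM in WT, 10.5, 11.05 and 12.1 in INSL3-KI and 11.6, 11.5 and 11.5 in INSL3-KO, and at P40 8.41, 7.98 and 8.52 in WT and 11.4, 12.3 and 10.3 in INSL3-KI. In CPM, WT at P23 and P40 lay below all libraries of P8, and the mutants at P23 and P40 lay above WT of their age by less than 2-fold. The drop in WT from a mean of 15.6 CPM at P8 to 6.85 at P23 was -0.43 as a TMM-scaled log2 fold change, not called.

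Ccna1 (ENSMUSG00000027793, GRCm38 chr3:55045469-55055501, minus strand) and Ccnb2 (ENSMUSG00000032218, GRCm38 chr9:70407692-70421547, minus strand) rose in WT testis and were low in INSL3-KO at P23, as was Ccne2, for which no promoter window was at hand. The 150 bases before the RefSeq start sites of this pair are shown (GRCm38.p6, read on the minus strand). Capitals mark the CCAAT box or its reverse, ATTGG, a motif bound by the factor NF-Y and common in promoters of cell cycle genes. The Ccna1 stretch is chr3:55055056-55055205, within the annotated span of the gene but outside annotated exons. The Ccnb2 stretch is chr9:70421555-70421704, just before the annotated gene.
Ccna1: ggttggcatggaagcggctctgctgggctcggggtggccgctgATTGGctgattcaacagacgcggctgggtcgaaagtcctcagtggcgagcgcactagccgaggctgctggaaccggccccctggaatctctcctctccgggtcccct
Ccnb2: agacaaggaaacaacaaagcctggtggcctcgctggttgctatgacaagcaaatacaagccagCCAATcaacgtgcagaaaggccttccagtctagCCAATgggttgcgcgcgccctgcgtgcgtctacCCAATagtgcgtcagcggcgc

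Ccnb2 held 3 CCAAT boxes, from bases -87, -54 and -21 relative to the start site, and Ccna1 held 1 in reverse from base -107. Of all 32851 promoter windows of 250 upstream bases, 33.8% held at least 1 CCAAT box on either strand. RefSeq windows were at hand for 6 of the 10 members. Ccnd3 had 2 windows, which makes 7. Of the others, Ccnb1 held 2 CCAAT boxes (from -99 and -67), Ccnd3 held 1 in the second of its windows, and Ccnb3 and Ccne1 held none. The cell cycle homology region TTTGAA, which 16.0% of all windows hold, occurred in Ccnb2 alone of the 7 windows (from -167). None of the 7 held the E2F letters TTTCGCG or TTTGGCG, which 1.93% of all windows hold. The letters TGACGT (6.47% of windows) occurred in Ccnd3, and AACTG (39.1%) occurred 3 times in Ccnb3 and 1 time in Ccnb1. Both strands were searched, no pair of these matches overlapped, and a match of letters is a description, not a binding site.

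Ccna1, the cyclin of male meiosis, was at or near 0 in every testis library at P8: 0.554, 0.260 and 1.497 CPM in WT, 0.432, 2.22 and 0.222 in INSL3-KI and 1.05, 0.709 and 0.897 in INSL3-KO. In WT it stood at 166, 169 and 167 CPM at P23 and at 193, 186 and 185 at P40. The log2 fold change against P8 was 8.50 at P23 (SE 0.42, edgeR adjusted p = 8.0e-07) and 8.60 at P40 (SE 0.45, edgeR adjusted p = 1.0e-06), and without WT replicate 3 of P8, the highest of that group, these became 9.44 and 9.54. INSL3-KI testis also reached high levels at P23, with 146, 178 and 60.2 CPM, a log2 fold change of 7.42 from P8 (SE 1.09, edgeR adjusted p = 0.0088). INSL3-KO did not, with 1.35, 0.906 and 1.34 CPM. It was lower than WT (log2 fold change -7.76, SE 0.10, edgeR adjusted p = 1.3e-12), and INSL3-KI at P23 was above INSL3-KO by 6.99 (SE 0.57, edgeR adjusted p = 0.00019). The 7.42 became 9.002 without INSL3-KI replicate 2 of P8. The summed level of the 10 spermatocyte markers at P23 was low in INSL3-KO, like Ccna1 and Ccnb2, at 1815 to 1897 CPM in WT, 1532 to 2184 in INSL3-KI and 201 to 218 in INSL3-KO. In INSL3-KI it overlapped WT, as Ccna1 did, while Ccnb2 lay below WT in every library. The part of these markers in the result was not tested.

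At P40 the INSL3-KI libraries split, with 60.6 CPM of Ccna1 in replicate 1 and 6.46 and 6.38 in replicates 2 and 3, all below WT. The log2 fold change of -3.51 (SE 1.01, edgeR adjusted p = 0.019) was not called, and without replicate 1 it was -5.52 (edgeR adjusted p = 1.3e-08). With all libraries kept, DESeq2 called it (-3.71, DESeq2 adjusted p = 2.0e-05), while edgeR without TMM did not. Ccnb2 split in the same way, with 84.6 CPM in replicate 1 and 18.9 and 17.3 in the others. The summed level of the spermatocyte markers was 1578, 448 and 344 CPM in the same 3 libraries, and its part in the result was not tested. The 8 spermatid markers were at 14.5 to 50.7 CPM in this group and at 7410 to 8696 in WT at P40.

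Ccna2 (ENSMUSG00000027715, GRCm38 chr3:36564865-36572150, minus strand), the A-type cyclin of dividing cells throughout the body, ran the opposite course. WT testis had 208, 219 and 205 CPM at P8, 16.0, 11.9 and 15.1 at P23 and 10.6, 11.5 and 12.9 at P40. It fell by 3.13 on the log2 scale to P23 (SE 0.12, edgeR adjusted p = 2.0e-07) and by 3.50 to P40 (SE 0.09, edgeR adjusted p = 4.5e-08). At P8 INSL3-KI was lower, with 110, 79.1 and 112 CPM (log2 fold change -1.18, SE 0.13, edgeR adjusted p = 0.0040), and INSL3-KO lay between, with 158, 156 and 157. At P23 the mutants lay above WT, with 24.6, 23.3 and 33.8 CPM in INSL3-KI and 44.0, 48.0 and 51.0 in INSL3-KO, and at P40 INSL3-KI had 29.7, 35.6 and 33.8. Of these, INSL3-KO was called at P23 (log2 fold change 1.09, SE 0.11, edgeR adjusted p = 5.7e-06), a value that became 0.88 with DESeq2, 0.97 without WT replicate 2 and -1.66 on the Sertoli scale. Within INSL3-KI it fell from P8 to P23 by 1.56 (SE 0.17, edgeR adjusted p = 0.0086), and within INSL3-KO by 1.46 (SE 0.05, edgeR adjusted p = 1.1e-10).

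**Figure D2:**
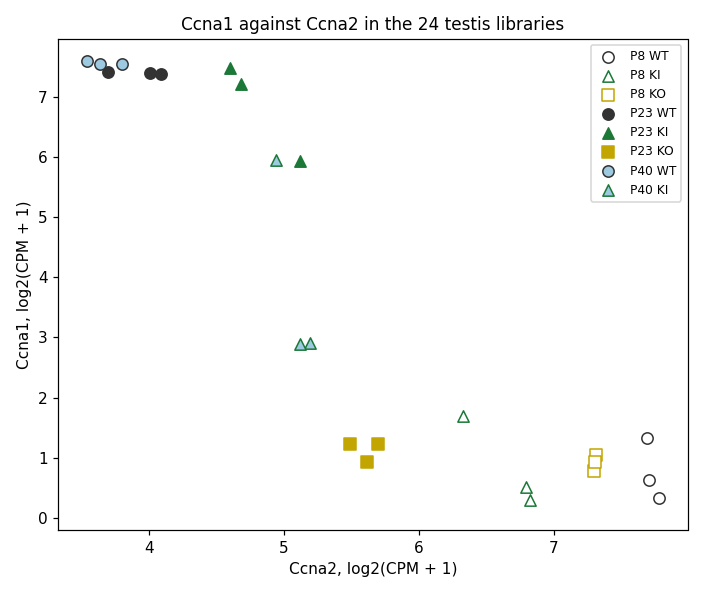
Ccna1 (vertical axis) against Ccna2 (horizontal axis) in the 24 testis libraries, both as log2(CPM + 1), 1 point per library, with genotype and age by marker and colour. P8 libraries lie at high Ccna2 and a Ccna1 of at most 2.22 CPM, WT at P23 and P40 at low Ccna2 and a Ccna1 of at least 166 CPM, and INSL3-KO at P23 at 44.0 to 51.0 CPM of Ccna2 with at most 1.35 CPM of Ccna1.

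Ccnb1 and Ccnb2 with CDK1 form the kinase that starts mitosis and the meiotic divisions. Ccnb2 in WT testis rose from 76.6, 82.9 and 82.9 CPM at P8 to 195, 193 and 188 at P23 and 168, 159 and 147 at P40. The log2 fold change was 1.999 at P23 (SE 0.07, edgeR adjusted p = 1.1e-07) and 1.65 at P40 (SE 0.10, edgeR adjusted p = 2.1e-06), the latter 0.97 without TMM. INSL3-KO went the other way, from 60.6, 58.6 and 54.6 CPM at P8 to 15.5, 18.3 and 15.5 at P23, a log2 fold change of -1.56 (SE 0.08, edgeR adjusted p = 2.0e-09). Against WT at P23 that was -4.18 (SE 0.07, edgeR adjusted p = 5.5e-12). INSL3-KI at P23 had 160, 171 and 91.8 CPM, above INSL3-KO by 3.34 on the log2 scale (SE 0.32, edgeR adjusted p = 0.00030). At P40 it had 84.6, 18.9 and 17.3 CPM, all below WT, and the log2 fold change of -2.55 (SE 0.70, edgeR adjusted p = 0.016) was called when replicate 1 was left out (-3.77, edgeR adjusted p = 5.3e-08). With all libraries kept, DESeq2 called it as well (-2.74, DESeq2 adjusted p = 3.6e-05), while edgeR without TMM did not.

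Ccnb1 (ENSMUSG00000041431, GRCm38 chr13:100778650-100786570, minus strand), the B-type cyclin that mitosis cannot do without, moved less. WT testis had 156, 134 and 125 CPM at P8, 92.5, 92.2 and 87.2 at P23 and 98.0, 89.6 and 81.0 at P40, and neither age was called against P8. INSL3-KI had 99.02, 73.0 and 91.7 CPM at P8, 84.1, 98.7 and 59.4 at P23 and 54.2, 35.8 and 34.4 at P40. The P40 libraries lay below WT (log2 fold change -1.71, SE 0.24, edgeR adjusted p = 0.0012; -1.11 without TMM). INSL3-KO had 145, 135 and 135 CPM at P8, overlapping WT, and 54.7, 51.7 and 50.8 at P23. That was lower than WT at P23 by a log2 fold change of -1.43 (SE 0.06, edgeR adjusted p = 2.9e-09), which was -0.79 without TMM, and lower than INSL3-KO at P8 by -1.14 (SE 0.05, edgeR adjusted p = 5.6e-10).

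Ccnb3 (ENSMUSG00000051592, GRCm38 chrX:6979652-7041619, minus strand), the B-type cyclin of early meiosis, had its highest levels in the P8 mutants. WT testis at P8 had 3.97, 1.25 and 0.748 CPM, or 136, 48 and 28 counts. INSL3-KI had 49.9, 40.9 and 44.1 CPM (1734, 1310 and 1590 counts) and INSL3-KO 20.7, 25.7 and 22.97 CPM (826, 905 and 819 counts). The log2 fold change was 4.40 in INSL3-KI (SE 0.61, edgeR adjusted p = 0.0053) and 3.43 in INSL3-KO (SE 0.54, edgeR adjusted p = 0.0016). Without WT replicate 1, the highest WT library, these became 5.34 and 4.42, and without INSL3-KI replicate 2 the value of INSL3-KI was 4.45. The summed level of 10 spermatocyte markers moved in the same direction at P8, with 77.5 to 158 CPM in WT, 753 to 2131 in INSL3-KI and 943 to 956 in INSL3-KO, and its part in the result was not tested.

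Later, Ccnb3 was at 4.71, 4.27 and 4.59 CPM in WT at P23 and 5.15, 4.58 and 8.62 at P40, the latter called against P8 (log2 fold change 2.30, SE 0.60, edgeR adjusted p = 0.0081), but not without TMM (1.63, edgeR adjusted p = 0.037), nor without WT replicate 2 of P8 or any 1 replicate of P40 (edgeR adjusted p up to 0.036). Without WT replicate 1 of P8 it was 3.27. INSL3-KI had 13.3, 13.4 and 23.4 CPM at P23 and 18.4, 17.4 and 15.2 at P40, and INSL3-KO 7.20, 7.88 and 7.13 at P23. Every INSL3-KI library thus held more than every WT library of the same age. INSL3-KI at P23 was above WT by a log2 fold change of 1.39 (SE 0.22, edgeR adjusted p = 0.0041), which shrank to 0.06 on the Sertoli scale. It was above INSL3-KO by 1.36 (SE 0.22, edgeR adjusted p = 0.0020), which lost its call without any 1 of the INSL3-KO replicates (edgeR adjusted p up to 0.014). Within INSL3-KO it fell from P8 to P23 by 1.38 (SE 0.11, edgeR adjusted p = 2.1e-07).

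**Figure D3:**
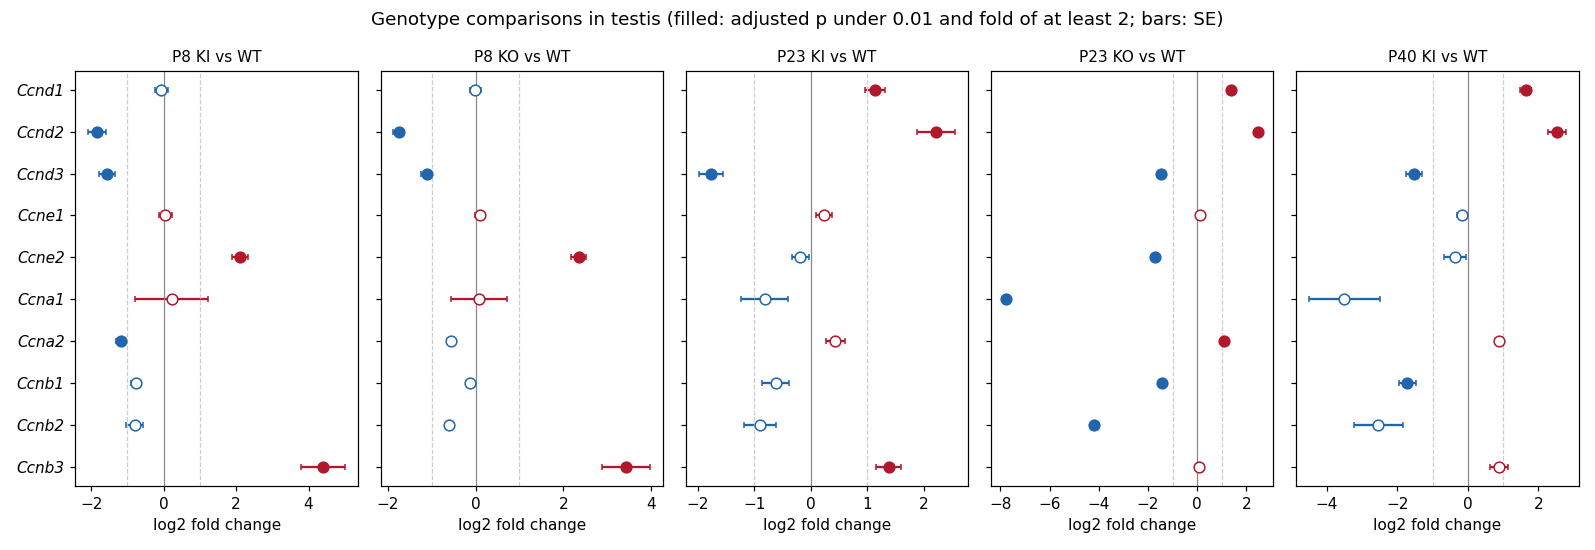
Log2 fold change of each cyclin in mutant against WT testis at P8, P23 and P40, from edgeR, with 1 panel per comparison and its own horizontal scale. Points are the estimates, bars the SE, and filled points the called genes. Ccnd3 lies to the left of 0, and is filled, in all 5 panels, and the point farthest from 0 is Ccna1 in INSL3-KO at P23, at -7.76.

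Counted over the members, all 10 of which were tested in testis, INSL3-KI at P8 had 3 below WT and 2 above it, where 6.29% of all genes tested were called (3.25% lower, 3.03% higher). Leaving out WT replicate 2 or 3 or INSL3-KI replicate 1 or 3 left none of the 5 called (edgeR adjusted p up to 0.036), while all 5 stayed called without INSL3-KI replicate 2, with log2 fold changes of -1.60 for Ccnd2, -1.36 for Ccnd3, -1.05 for Ccna2 and 1.96 for Ccne2. In INSL3-KO at P8 it was 2 lower and 2 higher, where 13.8% of genes were called (8.37% lower, 5.44% higher). At P23, 1 was lower and 3 higher in INSL3-KI (20.6% of genes called, 11.8% lower and 8.81% higher), and none stayed called without any 1 of the WT replicates or without INSL3-KI replicate 1 (edgeR adjusted p up to 0.025). In INSL3-KO at P23, 5 were lower and 3 higher where 64.4% of all genes were called (33.4% lower, 31.1% higher), and in INSL3-KI against INSL3-KO 4 were higher where 38.2% were (13.0% lower, 25.2% higher). In INSL3-KI at P40, 2 were lower and 2 higher where 47.7% were called (22.1% lower, 25.6% higher). On the Sertoli scale the split was 9 lower and none higher in INSL3-KO at P23, 1 lower and none higher in INSL3-KI at P23 and 8 lower and none higher in INSL3-KI at P40, and without TMM it was 3 and 3, 1 and 3, and 1 and 4. Of all genes on the Sertoli scale, 13321 of 16732, 2392 of 16603 and 12308 of 16677 were lower in the same order, and 74, 71 and 23 higher. Without TMM, 4537, 1450 and 2458 of them were lower and 7188, 3607 and 6583 higher. The share of members called at P23 in INSL3-KO and at P40 is thus close to that of all genes, and the values above describe single members, not a property of the family. The median log2 fold change of the 10 in INSL3-KO at P23 was -0.68, beside 0.06 over all genes.

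With age, WT testis had 3 members lower and 3 higher at P23 than at P8 (61.9% of genes called, 29.0% lower and 32.8% higher) and 3 lower and 4 higher at P40 (59.7%, with 27.8% lower and 31.9% higher). Without TMM these were 4 and 3 at P23 and 3 and 1 at P40. Of all genes without TMM, 7239 of 16908 were lower and 4236 higher at P23, and 6900 of 16892 lower and 4200 higher at P40. In INSL3-KI between P8 and P23 it was 2 lower, Ccnd1 and Ccna2, and 1 higher, Ccna1 (9.23%, with 3.53% lower and 5.7% higher). For Ccnd1 the log2 fold change was -1.45 (SE 0.19, edgeR adjusted p = 0.0086). These 3 calls were lost without INSL3-KI replicate 1 or 3 of P8 or replicate 1 or 2 of P23 (edgeR adjusted p up to 0.048), and there were 5 calls without replicate 3 of P23. Between P23 and P40 in INSL3-KI edgeR called none of the 10, where 0.0% of all genes were called, with 5 members at an unadjusted p under 0.05 and none by DESeq2. In INSL3-KO between P8 and P23, 6 members fell and none rose (23.7% of genes called, 11.7% lower and 12.0% higher), with a median of -1.16 over the 10 beside -0.02 over all genes. Those 6 were Ccnd1, Ccne2, Ccna2, Ccnb1, Ccnb2 and Ccnb3, and Ccnd1 fell by 1.18 (SE 0.07, edgeR adjusted p = 6.9e-09).

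**Figure D4:**
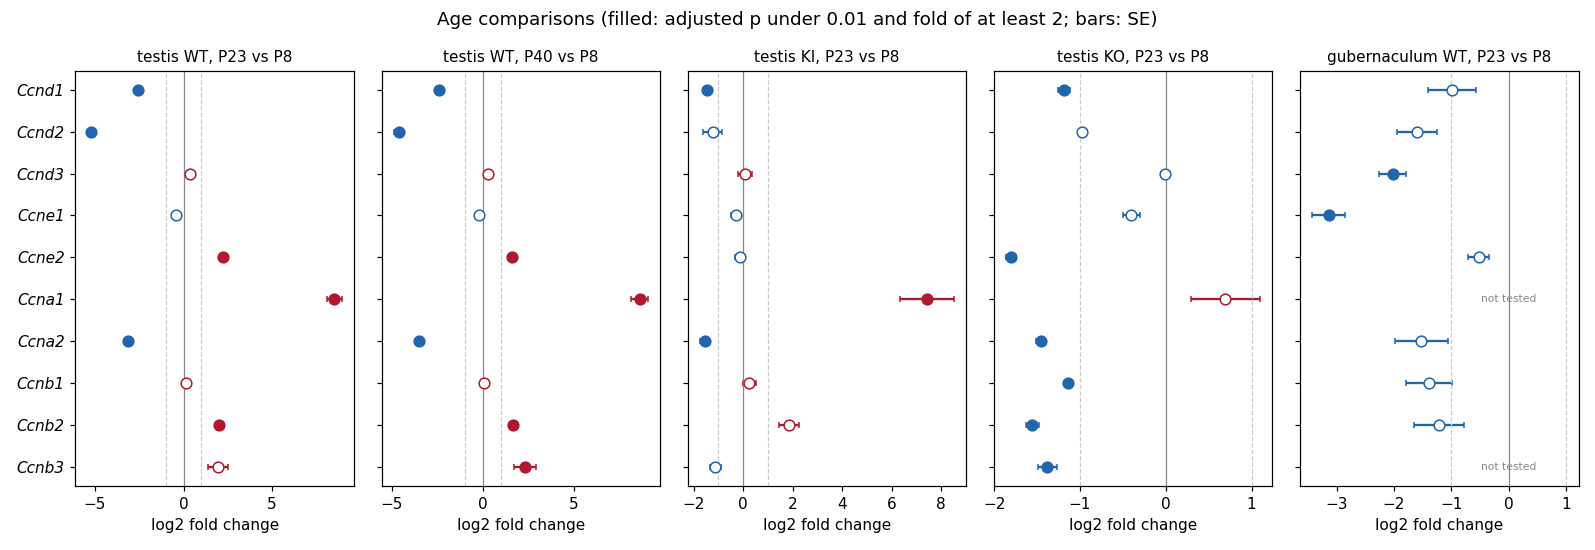
Log2 fold change of each cyclin between ages within a genotype, from edgeR, with 1 panel per comparison. Points are the estimates, bars the SE, and filled points the called genes. Ccna1 is the highest point in WT testis, at 8.50 and 8.60, and Ccnd2 the lowest, at -5.23 and -4.63.

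Whether the effect of INSL3-KI on testis differed between P40 and P8 was tested with an interaction term over the 4 groups, which lie in the same table. The difference was called for 6 of 10 members, 3 in each direction, where 45.6% of all genes were called (22.5% lower, 23.2% higher). For Ccnd2 it was 4.29 (SE 0.39, edgeR adjusted p = 2.0e-05), since INSL3-KI was below WT at P8 and above it at P40 on the TMM scale. Ccna2 (1.99, SE 0.19, edgeR adjusted p = 2.3e-05) and Ccnd1 (1.62, SE 0.26, edgeR adjusted p = 0.00040) shared that sign. Ccnb3 (-3.61, SE 0.68, edgeR adjusted p = 0.00099) and Ccne2 (-2.57, SE 0.40, edgeR adjusted p = 0.00031) had the opposite one. INSL3-KI was above WT at P8 for both, while at P40 Ccne2 overlapped WT. The value for Ccnb1, -1.04 (SE 0.28, edgeR adjusted p = 0.0079), was -0.46 and not called without TMM, and it lost its call without any 1 of 9 of the 12 libraries (edgeR adjusted p up to 0.047). The value for Ccnb3 was -4.58 without WT replicate 1 of P8. The interaction was not fitted on the Sertoli scale, on which INSL3-KI against WT at P40 was 0.21 for Ccnd2 and -0.71 for Ccnd1.

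In the gubernaculum the meiotic cyclins were barely present: Ccna1 did not exceed 1.58 CPM and Ccnb3 had at most 6 counts in any of the 15 libraries. The filter on low counts removed Ccnb3 from every comparison within the gubernaculum, and also Ccna1 from INSL3-KI against WT at P23 and from WT between the ages, which left 9 or 8 members tested. Ccnd3 dominated in WT at P8, with 628, 496 and 511 CPM. INSL3-KI had 186, 167 and 195 CPM and INSL3-KO 170, 190 and 191, with no mutant library near the WT range. The log2 fold changes were -1.89 in INSL3-KI (SE 0.13, edgeR adjusted p = 1.0e-05) and -1.74 in INSL3-KO (SE 0.11, edgeR adjusted p = 1.2e-05). Ccne1 was likewise lower, with 51.3, 30.7 and 35.8 CPM in WT, 9.43, 3.25 and 7.61 in INSL3-KI and 13.1, 12.4 and 12.8 in INSL3-KO. Its log2 fold changes were -2.85 (SE 0.37, edgeR adjusted p = 0.00034) and -1.79 (SE 0.18, edgeR adjusted p = 0.00013). The tissue itself differed. The summed level of 10 skeletal muscle markers was 31065 to 32578 CPM in WT at P8, 839 to 1496 in INSL3-KI, where Myf6 and Pax7 were at 0 in all libraries, and 6324 to 6857 in INSL3-KO. Markers of smooth muscle (2982 to 3450, 18638 to 23397 and 7723 to 8268 CPM), adipocytes (83.0 to 93.7, 1175 to 1514 and 2306 to 2627) and epididymal epithelium (0.493 to 0.702, 736 to 1842 and 1036 to 1145) were higher in both mutants. Their part in the cyclin results was not tested.

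Other cyclins set the mutants apart in the P8 gubernaculum. Ccnd1 was higher in INSL3-KI, with 274, 433 and 271 CPM against 127, 122 and 123 in WT (log2 fold change 1.083, SE 0.19, edgeR adjusted p = 0.0018), and INSL3-KO had 161, 170 and 169. Without INSL3-KI replicate 2, the highest, the log2 fold change of Ccnd1 was 0.82, under 2-fold, and in a fit with all gubernaculum groups its adjusted p was 0.20. Ccnd2 had 162, 178 and 154 CPM in WT, 187, 177 and 186 in INSL3-KI and 76.2, 87.1 and 73.2 in INSL3-KO. It was lower in INSL3-KO than in WT (log2 fold change -1.23, SE 0.09, edgeR adjusted p = 2.9e-05), and INSL3-KI exceeded INSL3-KO (1.03, SE 0.08, edgeR adjusted p = 4.7e-05, under 2-fold without INSL3-KO replicate 3). Ccne2 had 14.9, 12.3 and 11.3 CPM in WT, 16.5, 7.70 and 17.2 in INSL3-KI and 40.0, 39.6 and 41.9 in INSL3-KO. Here INSL3-KO was above WT by 1.49 (SE 0.11, edgeR adjusted p = 2.9e-05), and INSL3-KI was below INSL3-KO, at a log2 fold change of -1.74 (SE 0.28, edgeR adjusted p = 0.0014). The differences between the mutants are also differences between the tables.

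Ccna2, Ccnb1 and Ccnb2, the cyclins of S phase and division, were called in no genotype comparison of the gubernaculum. Ccna2 had 99.9, 84.0 and 92.0 CPM in WT at P8, 130, 36.5 and 103 in INSL3-KI and 133, 137 and 144 in INSL3-KO. Ccnb1 ran from 28.8 to 43.0 CPM in WT, 11.9 to 51.3 in INSL3-KI and 62.3 to 72.2 in INSL3-KO, and Ccnb2 from 28.6 to 37.9, 16.5 to 49.8 and 54.96 to 59.4. For all of these, INSL3-KI replicate 2 was the lowest library of its group and the INSL3-KO libraries lay above WT by less than 2-fold. In all, INSL3-KI had 2 of 9 members below WT and 1 above it, where 24.1% of genes were called (9.7% lower, 14.4% higher), and 3 lower and 1 higher in INSL3-KO, where 30.7% were (15.2% lower, 15.5% higher). Between the mutants 1 was lower and 1 higher in INSL3-KI, where 22.5% were called (10.5% lower, 11.9% higher). These shares are near those of all genes.

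At P23 the gubernaculum groups were wide. Ccnd1 had 26.5, 41.4 and 109 CPM in WT and 643, 64.4 and 607 in INSL3-KI, where replicate 2 fell within the WT range. Ccnd2 had 23.5, 47.7 and 82.6 CPM in WT and 193, 185 and 244 in INSL3-KI, which did not overlap. The log2 fold changes of 2.60 (SE 0.92, edgeR adjusted p = 0.11) and 1.75 (SE 0.39, edgeR adjusted p = 0.040) were not called. Of the 8 members tested edgeR called none, where 2.57% of all genes were called (2.35% lower, 0.212% higher), with 2 at an unadjusted p under 0.05, and DESeq2 called 1, Ccnd2. Without INSL3-KI replicate 2 they were 3.04 (edgeR adjusted p = 0.023) and 1.71 (edgeR adjusted p = 0.048), and without WT replicate 3 they were 3.33 (edgeR adjusted p = 0.14) and 2.22 (edgeR adjusted p = 0.032). The INSL3-KI replicate also stood apart in its cell type markers: epididymal epithelium was at 2325, 1.87 and 8303 CPM in the 3 INSL3-KI libraries, smooth muscle at 15179, 1755 and 15124, and skeletal muscle at 967, 12.7 and 721, against 44013 to 65712 CPM of skeletal muscle markers in WT. The WT libraries held 0.241, 0.393 and 946 CPM of the epididymal markers, the last in replicate 3, which also had the most Ccnd1 and Ccnd2 of WT. The part of these in the result was not tested.

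From P8 to P23, Ccnd3 and Ccne1 fell in WT gubernaculum. Ccnd3 reached 77.9, 144 and 155 CPM (log2 fold change -2.02, SE 0.24, edgeR adjusted p = 0.0016, not called without WT replicate 1 of P8) and Ccne1 2.50, 4.97 and 4.98 CPM (-3.14, SE 0.29, edgeR adjusted p = 0.00085). Of the 8 tested these were the only calls by edgeR, where 10.5% of genes were called (4.34% lower, 6.17% higher), while DESeq2 called 5 and edgeR 4 without WT replicate 3 of P23. Ccna2 (9.77, 51.9 and 29.1 CPM), Ccnb1 (5.01, 19.4 and 13.0) and Ccnb2 (5.46, 24.5 and 11.6) lay below all P8 libraries of WT and were not called. The median over the 8 was -1.46, beside 0.00 over all genes. In INSL3-KI, Ccnd3 had 136, 239 and 117 CPM at P23 and Ccne1 6.69, 7.64 and 9.03, and edgeR called none of 9 members between the ages, where 0.0% of genes were called, with 1 at an unadjusted p under 0.05 and none by DESeq2. The difference of the INSL3-KI effect between P23 and P8 was called for none of 9 members by edgeR (0.281% of genes called, 3 members at an unadjusted p under 0.05, 3 called by DESeq2). It was 3.46 for Ccne1 (SE 0.52, edgeR adjusted p = 0.011), 2.01 for Ccnd3 (SE 0.43, edgeR adjusted p = 0.025) and 1.88 for Ccnd2 (SE 0.42, edgeR adjusted p = 0.029).

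**Figure D5:**
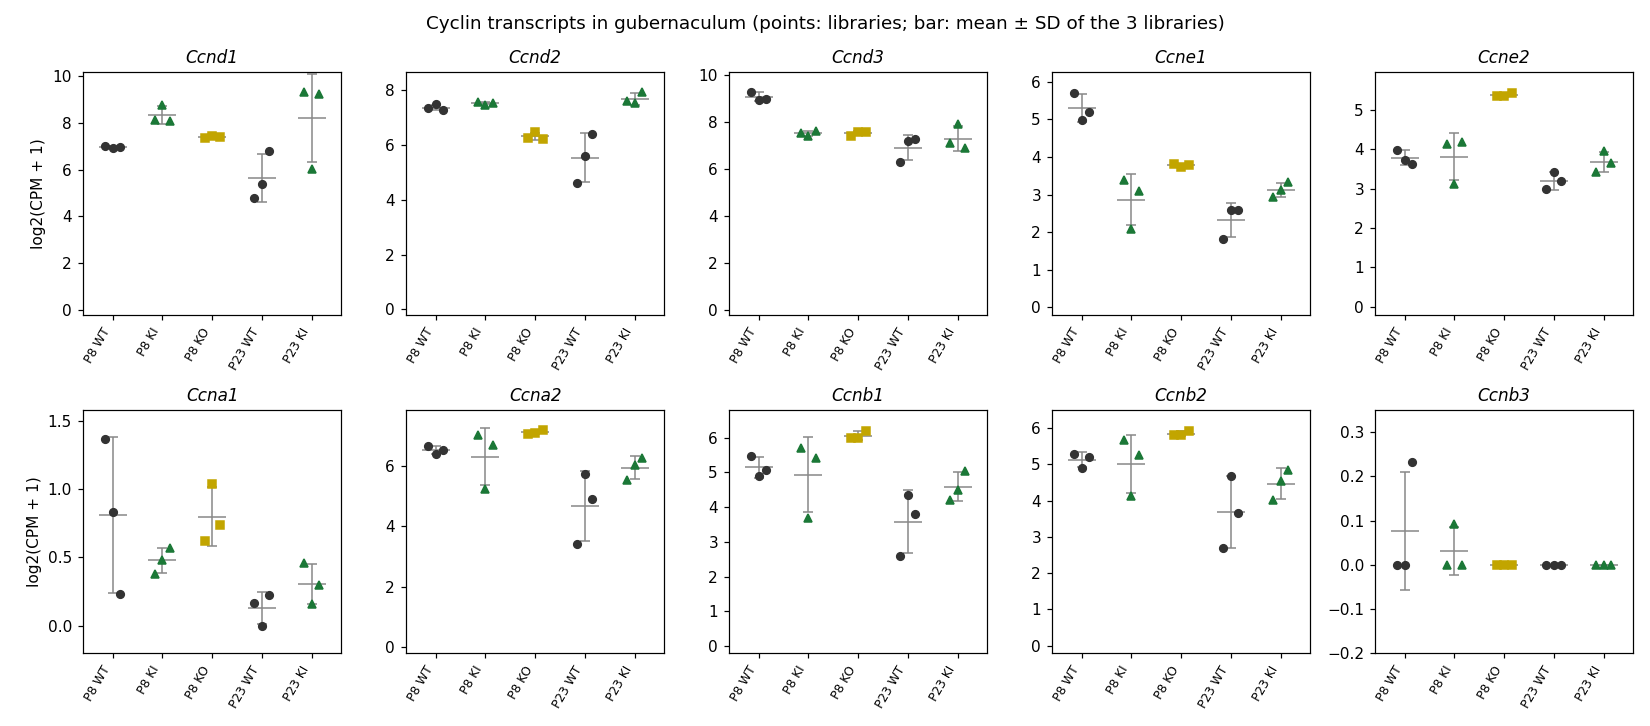
Levels of the 10 cyclins in the 15 gubernaculum libraries, as log2(CPM + 1) on the vertical axis of each panel (each panel has its own range), by genotype and age on the horizontal axis. Points are libraries, and bars are the mean ± SD of 3 libraries. Ccnd3 and Ccne1 are highest in WT at P8, and the points of Ccnd1 at P23 spread from 26.5 to 643 CPM.

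Set against WT testis of the same age and table, WT gubernaculum at P8 held more Ccnd3 (log2 fold change 1.94, SE 0.17, edgeR adjusted p = 7.4e-05) and Ccne1 (1.76, SE 0.20, edgeR adjusted p = 0.00027) and less Ccnd2 (-1.01, SE 0.14, edgeR adjusted p = 0.00068) and Ccnb1 (-1.57, SE 0.16, edgeR adjusted p = 0.00018). These were the 4 members called of 10, where 28.4% of genes were (14.3% lower, 14.1% higher), and without TMM 5 were lower and 2 higher. Of the calls over all genes without TMM, 29.1% were higher. The call for Ccnd2 was lost without gubernaculum replicate 1 or 3 or testis replicate 2. The effect of INSL3-KI at P8 also differed between the tissues. The value in gubernaculum minus that in testis was 1.68 for Ccnd2 (SE 0.29, edgeR adjusted p = 0.00093) and 1.15 for Ccnd1 (SE 0.28, edgeR adjusted p = 0.0065), and -2.89 for Ccne1 (SE 0.46, edgeR adjusted p = 0.00055) and -2.31 for Ccne2 (SE 0.40, edgeR adjusted p = 0.00096), with 21.8% of all genes called (8.92% lower, 12.9% higher). The value for Ccnd1 lost its call without any 1 of 8 of the 12 libraries (edgeR adjusted p up to 0.025) and in a fit with all groups. Ccnd3 was lower in INSL3-KI in both tissues.

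Of the 4 kinase partners, Cdk1 drives division, Cdk2 serves the E- and A-type cyclins, and Cdk4 and Cdk6 the D-type. Cdk1 and Cdk2 changed by less than 2-fold in every genotype comparison of testis except for Cdk1 in INSL3-KI at P8 (log2 fold change -1.11, SE 0.16, edgeR adjusted p = 0.0055). Cdk4 fell in WT testis from P8 to P40 (-2.39, SE 0.10, edgeR adjusted p = 4.0e-07), like its partners Ccnd1 and Ccnd2. It was above WT in INSL3-KO at P23 (1.86, SE 0.05, edgeR adjusted p = 2.8e-10) and in INSL3-KI at P40 (1.57, SE 0.14, edgeR adjusted p = 0.00036), values smaller than the shifts of 2.75 and 2.32 that Sertoli scaling brings. Cdk6, the other D-type partner, was higher in INSL3-KI gubernaculum at P8 (1.58, SE 0.20, edgeR adjusted p = 0.00030). In INSL3-KO at P8, across the tables, it was lower in gubernaculum (-3.63, SE 0.25, edgeR adjusted p = 1.9e-05) and in testis (-2.54, SE 0.08, edgeR adjusted p = 3.9e-06).

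Among 7 CDK inhibitors, the brakes of these kinases, 2 were lower and 1 higher in INSL3-KI gubernaculum at P8, and 2 lower and 2 higher in INSL3-KO, where 24.1% and 30.7% of all genes were called. Cdkn1c and Cdkn1a, which hold cells out of the cycle, had log2 fold changes of -4.36 (SE 0.26, edgeR adjusted p = 5.5e-06) and -4.12 (SE 0.30, edgeR adjusted p = 1.5e-05) in INSL3-KI and of -1.97 (SE 0.17, edgeR adjusted p = 5.3e-05) and -3.35 (SE 0.09, edgeR adjusted p = 7.8e-07) in INSL3-KO. Cdkn2b, an inhibitor of CDK4 and CDK6, was higher at P8 in both tissues of both mutants, with log2 fold changes of 3.03 (SE 0.45, edgeR adjusted p = 0.00075) and 3.85 (SE 0.34, edgeR adjusted p = 6.3e-05) in gubernaculum and 2.73 (SE 0.29, edgeR adjusted p = 0.0040) and 2.45 (SE 0.24, edgeR adjusted p = 0.00019) in testis. Of 13 RB and E2F genes, 4 were lower and none higher in INSL3-KI gubernaculum, where 9.7% of all genes were lower and 14.4% higher, among them E2f2 (-2.50), Rb1 (-1.73) and E2f1 (-1.39), with a list median of -0.64 beside 0.02 over all genes.

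A list of 25 genes of mitotic proliferation is set beside the testis results of Ccna2 and the B-type cyclins. At P8 it had 2 members lower and none higher in INSL3-KI, with a median of -0.40, and none called in INSL3-KO (-0.31), where 6.29% and 13.8% of all genes were called. In INSL3-KO at P23, 14 were lower and 4 higher than in WT, where 33.4% of all genes were lower and 31.1% higher, with Aurka (-3.92), Foxm1 (-3.62) and Birc5 (-2.90) the farthest, a median of -1.05 beside 0.06 over all genes. Ccna2 went the other way there, called above WT on the TMM scale (log2 fold change 1.09, but -1.66 on the Sertoli scale). Within INSL3-KO, 22 of 25 fell from P8 to P23 and none rose (median -1.48), where 11.7% of all genes were lower and 12.0% higher, with Rrm2 (-1.99), Mki67 (-1.97) and Top2a (-1.88) the farthest. In WT gubernaculum 10 of 25 fell over the same ages and none rose (median -1.53), where 4.34% of all genes were lower and 6.17% higher.

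A list of 14 genes of meiosis, not all of them regulators of pachytene or of the divisions, stands beside the results of Ccna1 and Ccnb2. In WT testis 12 of 14 were higher at P23 than at P8 and none lower (median 4.12), where 32.8% of all genes were higher and 29.0% lower, led by Speedya (6.46), a CDK2 activator of meiosis, and by Hspa2 (6.32), a chaperone of CDK1 in spermatocytes. In INSL3-KO at P23 all 14 were lower than in WT, where 33.4% of all genes were, with a median of -3.77 and Aurkc (-5.65), Speedya (-5.56) and Hspa2 (-4.80) the farthest. In INSL3-KI against INSL3-KO at P23, 11 of 13 tested were higher and none lower (median 3.69), where 25.2% of all genes were higher and 13.0% lower. In INSL3-KI at P40, 5 of 14 were lower and none higher (median -1.80), where 47.7% of all genes were called (22.1% lower, 25.6% higher), with Mos (-3.89) and Cdc25c (-2.80) the farthest. At P8, where Ccna1 overlapped WT and Ccnb2 lay below it in both mutants, 3 of 13 were higher in INSL3-KI and none lower, namely Majin (4.16), Speedya (3.61) and Ythdc2 (2.04), and in INSL3-KO 6 of 13 were higher and none lower, with Majin (3.62), Meioc (3.61) and Speedya (3.20) the farthest. Of all genes, 3.03% were higher in INSL3-KI and 5.44% in INSL3-KO. These lists and comparisons share WT libraries, and the lists were written with earlier results of these data known.

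Among 12578 genes with a level to compare, those whose log2(CPM + 1) ran most like a member's over the 24 testis libraries were named for each member by Pearson's r, as a description. The libraries fall into 8 groups of 3 and share age and genotype, so that r reflects the group means. For Ccna1 these were Galntl6 (r = 0.997) and Ccdc178 (0.996), and for Ccna2 Ppic (0.992) and Mcm6 (0.992), the latter a subunit of the replicative helicase. For Ccnd2 they were Amh (0.993), the Sertoli cell hormone, and Creb3l2 (0.993), and for Ccnd1 Plod1 (0.992) and Prkd3 (0.992). For Ccne2 they were Tex12 (0.979), a component of the synaptonemal complex, and Iqcb1 (0.964), and for Ccnb3 Synj1 (0.965) and Pet2 (0.953). For Ccnb2 they were Cdca3 (0.978) and Meaf6 (0.975), for Ccnb1 Cdca5 (0.964) and Cct2 (0.945), for Ccne1 Bnc1 (0.969) and Pth1r (0.966), and for Ccnd3 Rbms1 (0.947) and Ccdc50 (0.909).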

How the data were processed

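RNA-seq libraries of gubernaculum and testis were compared, with groups taken from the sample labels. The authors extracted RNA, prepared mRNA libraries, sequenced them in pairs and aligned the reads with HISAT2 to GRCm38 (versions, the counting tool and the annotation release are not given in the sources used here). They deposited whole-number counts and FPKM per gene in 2 tables, with 22036 and 43339 Ensembl genes. The FPKM deposited by the authors served the order of genes and an alternative test. CPM was computed from the deposited counts over the 21561 genes in both tables, which hold 94.2% to 97.9% of a library's counts.

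Each of 18 comparisons of 2 groups and 3 interactions was fitted in R 4.3.3 on those genes with edgeR 4.0.16 (TMM, filterByExpr at its settings of 10 counts and 15 in total, quasi-likelihood test, no replicate block). P-values were adjusted by Benjamini-Hochberg within each fit. Calls were genes that changed at least 2-fold with that p below 0.01. SE was the absolute log2 fold change divided by the square root of F. Alternatives were library size alone, no filter, DESeq2 1.42.0, all groups of a tissue in 1 fit, a replicate block, limma 3.58.1 on log2(FPKM + 1), also without its filter, and on log2(FPKM + 0.1), scaling on Sertoli cell markers, and each library left out in turn. The procedures were tested on simulated data with the same spread in every group and no library set apart. In the real groups the spread between replicates (biological coefficient of variation) ran from 0.0789 in INSL3-KO testis at P8 to 0.497 in INSL3-KI gubernaculum at P23. The simulation thus does not show how the procedures fare in the wide groups. Members named with a log2 fold change were those called or with a change of at least 2-fold, except for Ccne1 in WT testis between P8 and P23. Partner genes named were the farthest called of a list, and the 2 most similar genes were named for each member. The members and lists were chosen with earlier results of these data known. Replicates were independent biological samples per the study's methods. Gubernaculum of INSL3-KO at P23 and testis of INSL3-KO at P40 were not analysed here. Python 3.11.15 was used for tables and motif searches.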

Additional observations from a re-analysis of the deposited data

Results flagged for a closer look

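The effect of INSL3-KI on testis differed between P40 and P8, by an interaction term adjusted over all genes, for 6 cyclins: the value at P40 minus that at P8 was 4.29 for Ccnd2, 1.99 for Ccna2, 1.62 for Ccnd1, -1.04 for Ccnb1, -2.57 for Ccne2 and -3.61 for Ccnb3, on the log2 scale. Of all genes, 45.6% were called there (22.5% lower, 23.2% higher). The value for Ccnb1 was -0.46 and not called without TMM. These are values on the TMM scale, and the interaction was not fitted on the Sertoli scale. On that scale INSL3-KI against WT at P40 was 0.21 for Ccnd2, not called, and -0.71 for Ccnd1, so the values for these genes depend on the scaling. The effect of INSL3-KI at P8 differed between gubernaculum and testis for 4 cyclins by the same kind of test, with a value in gubernaculum minus testis of 1.68 for Ccnd2, 1.15 for Ccnd1, -2.31 for Ccne2 and -2.89 for Ccne1. Of all genes, 21.8% were called there (8.92% lower, 12.9% higher). The value for Ccnd1 was not called in a fit with all groups (edgeR adjusted p = 0.13).

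The second table also lists cyclin pseudogenes, which no comparison used. Ccnb1-ps had up to 77 counts in a library and Ccnb2-ps up to 337, the latter in INSL3-KO testis at P23. How reads shared by a gene and its pseudogene were counted is not given in the sources used here.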

How the results depend on the processing

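Among single cyclins with a call, 559 alternative values kept direction and call, 51 kept the direction only and 5 reversed, all 5 on the Sertoli scale: Ccnd1 (-0.17) in INSL3-KI at P23, Ccnd1 (-1.37), Ccnd2 (-0.26) and Ccna2 (-1.66) in INSL3-KO at P23 and Ccnd1 (-0.71) in INSL3-KI at P40, each against WT. That scale is set by the Sertoli cell markers, not by their summed level, and it shifts all genes. With a library left out, 435 values kept the call, 81 lost it and 0 reversed. Among single cyclins without a call, 833 alternative values stayed so in the same direction, 77 gained a call and 94 reversed. With a library left out these were 793, 23 and 48, so the absence of a call also depends on the processing. The number of cyclins called moved as follows, and the cause was not tested. On the Sertoli scale it was 1 (not 4) in INSL3-KI testis at P23, 8 (not 4) against INSL3-KO at P23 and 8 (not 4) at P40. Of all genes on that scale, 2392 of 16603, 102 of 16379 and 12308 of 16677 were lower in the same order, and 71, 7910 and 23 higher. With library size alone it was 4 (not 7) for WT testis from P8 to P40 and 7 (not 4) for P8 gubernaculum against testis. DESeq2 gave 1 (not 0) for INSL3-KI gubernaculum at P23, 5 (not 2) for WT gubernaculum between ages and 3 (not 0) for the difference of the INSL3-KI effect in gubernaculum between ages. All groups in 1 fit gave 1 (not 2) for INSL3-KI against INSL3-KO gubernaculum, 2 (not 0) for INSL3-KI gubernaculum at P23, 5 (not 3) for INSL3-KI testis from P8 to P23, 2 (not 0) from P23 to P40 and 3 (not 0) for the gubernaculum difference. On log2(FPKM + 1) and log2(FPKM + 0.1) limma gave 7 (not 4) in INSL3-KI testis at P40, 4 (not 7) for WT from P8 to P40, 5 (not 3) for INSL3-KI from P8 to P23 and 1 (not 0) for the gubernaculum difference, and on log2(FPKM + 1) 5 (not 8) in INSL3-KO at P23, also without the filter, where it gave 3 (not 5) in INSL3-KI testis at P8, 4 for WT from P8 to P40 and 1 for the gubernaculum difference.

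Leaving out 1 library at a time gave 1 to 2 calls for INSL3-KI against INSL3-KO gubernaculum, 0 to 6 for INSL3-KI testis at P8, 0 to 4 at P23, 0 to 5 between these ages, 1 to 4 for WT gubernaculum between ages and 0 to 2 for the gubernaculum difference. Replicate numbers were not taken as pairs, since in no comparison were all 3 correlations of same-numbered samples over 0.1. This cannot exclude pairing: in gubernaculum at P23 they were -0.083, 0.32 and 0.443 for INSL3-KI against WT. The sample labels do not say whether same-numbered libraries share a mouse or litter. With the replicate block 0 (not 5) cyclins were called in INSL3-KI testis at P8, 1 (not 4) at P23 and 1 (not 2) in WT gubernaculum between ages. Using all Ensembl genes of a table, an alternative chosen after seeing the data, changed no count by more than 1.5 times. CPM over all entries moved 22 of 130 group means by over 1 SD. Gubernaculum Ccnb3 had at most 6 counts, too few to compare at this depth.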
